A study of Drosophila melanogaster with 13 samples.

Results

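The genes described here encode the proteins of the mitochondrial ribosome of Drosophila melanogaster. They were taken by name, as every gene whose symbol starts with mRpL or mRpS, and 73 of the 18344 genes in the deposited expression files met this rule, 47 named for the large subunit and 26 for the small subunit. Subunits given below follow these names, which were not checked against a structure of the ribosome. Expression was measured by RNA sequencing of adult heads from flies aged 5 days and kept at 25 °C. All 13 samples carried GMR-Gal4, a driver that acts in the developing retina of the pupa and in the eye of the adult. The driver was combined with UAS-Rab5 RNAi in 5 samples, with UAS-Rab7 RNAi in 4 samples and with a wild-type chromosome in the 4 controls. The study set out to examine Rab GTPases in tubulin expression and in the building of microtubules, and its labels describe a degenerating eye in the Rab5 RNAi line. Heads hold many tissues other than the eye in which the driver acts, and how many heads were pooled per sample is not given in the labels.

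The mitochondrial ribosome translates the few messages that the mitochondrial genome encodes, all of them for subunits of the oxidative phosphorylation complexes. Its ribosomal RNAs come from the mitochondrial genome, whereas its proteins are encoded in the nucleus, made in the cytosol and imported. The small subunit reads the message and the large subunit joins the amino acids. Besides proteins with counterparts in bacterial ribosomes, both subunits hold proteins found only in mitochondria.

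Values are FPKM (reads on a gene scaled to its length and to the size of the library), which the authors deposited for each sample and which allow levels to be compared between genes. Reads assigned to genes ran from 17138630 to 21410768 per library, and the mitochondrial ribosomal protein genes took 0.145% to 0.197% of them. As a check of the labels, Rab5 itself averaged 57.7 FPKM in Rab5 RNAi (SD 5.56, n = 5) against 115.5 FPKM in controls (SD 4.54, n = 4), a log2 difference of -0.99 (SE 0.09, limma adjusted p = 1.9e-05). Under the Rab7 RNAi label, Rab7 averaged 97.7 FPKM (SD 9.54, n = 4) against 99.97 FPKM in controls (SD 3.93, n = 4), a log2 difference of -0.04 (95% interval -0.21 to 0.13, limma adjusted p = 0.88). Because a fall of the targeted gene was not found there, these are called the Rab7-labelled libraries below. The photoreceptor markers summed to 33332 to 44111 FPKM in controls, 17053 to 39169 FPKM in Rab7-labelled libraries and 1522 to 8198 FPKM in Rab5 RNAi, where 8 of 8 fell. Of 5 neuronal markers 1, nSyb, fell in Rab5 RNAi, and the 5 summed to 607 to 682 FPKM in controls, 429 to 546 FPKM in Rab5 RNAi and 515 to 712 FPKM in Rab7-labelled libraries. Of 2 tested fat body markers Yp3 fell in Rab5 RNAi, while to averaged 34.1 FPKM there and 20.3 FPKM in controls without overlap and was not called (limma adjusted p = 0.062). limma called neither of 2 glial markers, both of them at an unadjusted p under 0.05, and none of these markers was called in Rab7-labelled libraries against controls. The part of these shifts in the results below was not tested. Heads were sequenced whole, so fewer cells of a type and less RNA per cell cannot be told apart. Whether the samples of a group came from separate crosses is not given in the labels, so the p-values rest on a spread that may be technical.

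Of the 73 genes, 72 had reads in every library and passed the filter for testing, a mean of at least 1 FPKM over the 13 libraries. The remaining gene, mRpL53, was listed at 0 in all 13 libraries. All 829 of its exonic bases lie, in the BDGP6 annotation, within exons of CG33155 on the same strand, and CG33155 had 7 to 45 reads per library. The related genes waw, mtTFB1 and SLIRP1, which act in mitochondrial gene expression, were also listed at 0 in every library, and in each of them 100% of the exonic bases lie within exons of a same-strand gene. Their 0 is not read as a level here. For the 72 others, 38 to 1740 reads stood behind each value, with a median of 376. The 73 genes are spread over the genome, with mRpL and mRpS genes on 2L (12), 2R (12), 3L (17), 3R (21) and X (11).

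In control heads these genes were expressed at similar levels. Their mean FPKM ran from 10.5 to 64.3, a 6.12-fold range, with a median of 26.2, against a median of 13.8 for all 10038 genes tested, and 64 of 72 lay between 15 and 40 FPKM. The median was 25.3 FPKM for large-subunit genes and 27.2 FPKM for small-subunit genes. Across the 4 controls the coefficient of variation had a median of 13.1%, from 3.09% for mRpS5 to 29.3% for mRpL33, a short gene.

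**Figure D1:**
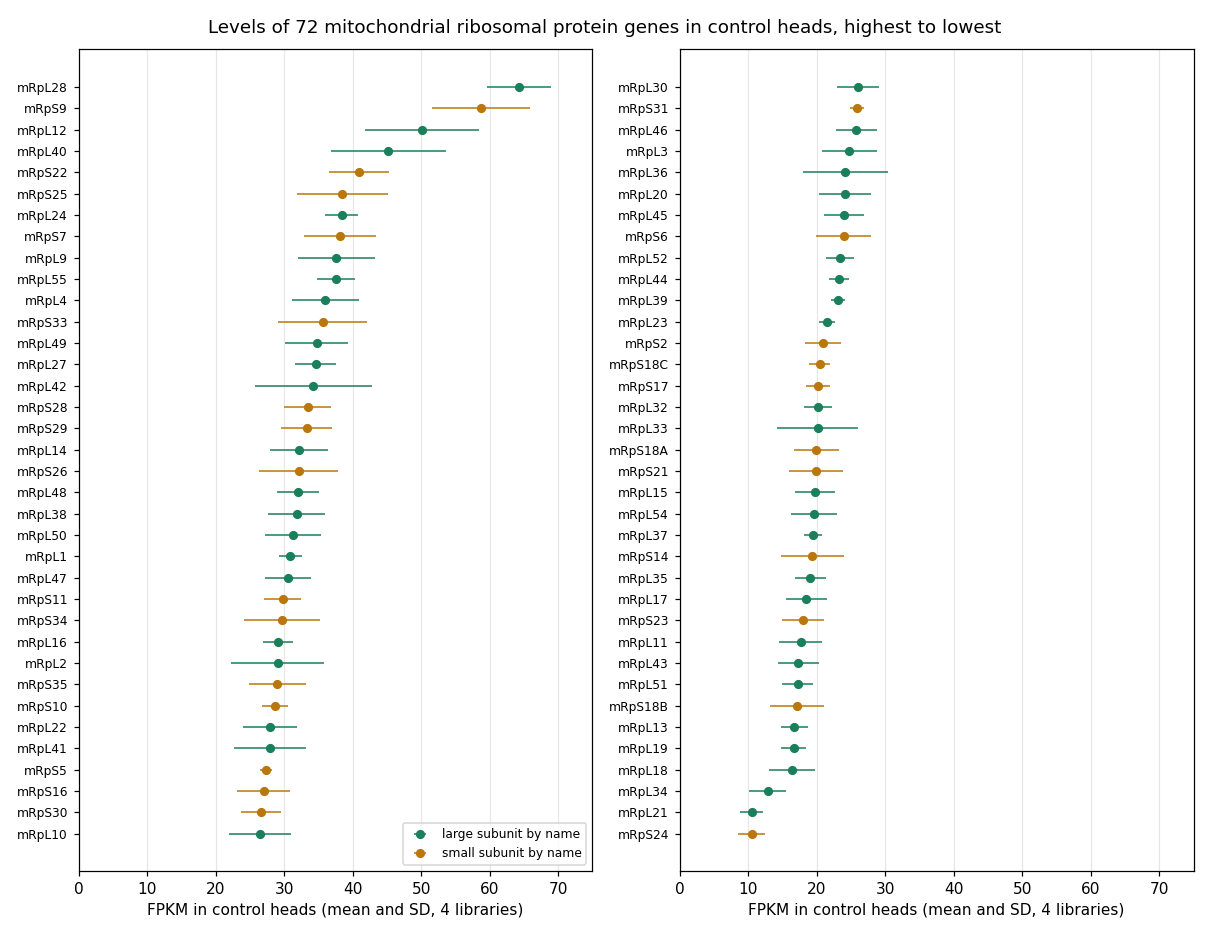
Level of each of 72 mitochondrial ribosomal protein genes in control heads, from highest to lowest. Points are mean FPKM over 4 control libraries and bars are SD. Green marks the large and brown the small subunit, by name. Levels run from 64.3 FPKM for mRpL28 to 10.5 FPKM for mRpS24, and most neighbours overlap within their SD.

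The highest was mRpL28, the counterpart of bacterial ribosomal protein L28 (FBgn0031660, 2L 4973976 to 4975316, plus strand), with 66.7, 69.3, 58.8 and 62.5 FPKM in controls 1 to 4. Next came mRpS9, the counterpart of bacterial S9 (FBgn0037529, 3R 7889277 to 7902667, minus strand), with 60.6, 65.9, 59.6 and 48.9 FPKM. Below it was mRpL12, whose bacterial counterpart forms the mobile stalk that recruits translation factors (FBgn0011787, 3L 8956791 to 8957584, plus strand), with 54.1, 59.2, 46.9 and 40.3 FPKM. The lowest measured levels were those of mRpS24, the counterpart of bacterial S3 (FBgn0039159, 3R 24162829 to 24163545, minus strand), with 9.77, 13.4, 9.79 and 9.10 FPKM. Beside it stood mRpL21 (FBgn0036853, 3L 19253290 to 19255061, minus strand), with 10.5, 12.8, 9.997 and 8.78 FPKM. Of the 600 exonic bases of mRpS24, 332 (55.3%) are shared with exons of TBC1d7 on the opposite strand, whereas mRpL21 shares none. How reads in shared bases were counted is not given, and the part of this overlap in the low value of mRpS24 was not tested. Of the 71 steps between neighbours in this order, 3 were larger than the larger SD of the pair. They were mRpS9 above mRpL12 (a step of 8.61 FPKM against an SD of 8.29), mRpL39 above mRpL23 (1.63 against 1.14) and mRpL18 above mRpL34 (3.54 against 3.38). Genes that neighbour each other elsewhere in the order did not differ beyond their spread. mRpL12, mRpS24 and mRpL21 were called in none of the 3 comparisons.

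The genes varied together between libraries of a group. Their summed FPKM was 1973, 2293, 1839 and 1770 in controls 1 to 4. It was 1683, 1930, 1839, 1943 and 1518 in Rab5 RNAi 1 to 5, and 1833, 2035, 2028 and 1876 in Rab7-labelled libraries 1 to 4. Control 2 was the highest of all and Rab5 RNAi 5 the lowest: 66 of 72 genes had their highest control value in control 2, and 46 had their lowest Rab5 RNAi value in Rab5 RNAi 5. Controls averaged 1969 FPKM (SD 232, n = 4), Rab5 RNAi 1783 FPKM (SD 181, n = 5) and Rab7-labelled libraries 1943 FPKM (SD 104, n = 4). The ranges of the 3 groups overlapped. The ratio of summed large-subunit to summed small-subunit FPKM had a mean of 1.72 in controls, with a range over all 13 libraries of 1.62 to 1.85.

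After each group's mean was removed, the median Pearson correlation over the 2556 pairs of these genes was 0.48 across the 13 libraries, and 93.4% of pairs were above 0. Over all pairs of tested genes the median was 0.00 and 50.1% were above 0. Cytosolic ribosomal protein genes had a median of 0.66 and nuclear oxidative phosphorylation genes 0.59. The points of each correlation are the same libraries, so they share depth, scaling and tissue content. The first principal component held 49.7% of the within-group variance, with control 2 (0.51) and Rab5 RNAi 5 (-0.53) at its ends. mRpL49 (0.66) and mRpS11 (0.64) had the highest median correlations with the other genes, and mRpS5 and mRpL16 (both 0.10) the lowest.

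The summed level also moved with muscle and photoreceptor RNA within every group. Act57B, a muscle actin, was at 1438 to 1574 FPKM in control 4, Rab5 RNAi 1 and 5 and Rab7-labelled 1 and 4, and at 653 to 846 FPKM in the other 8 libraries. In each of the 3 groups the libraries with high Act57B had lower summed mitochondrial ribosomal protein FPKM than all the others. The same libraries had the lowest photoreceptor sums of their groups, 33332 FPKM in control 4, 1891 and 1522 FPKM in Rab5 RNAi 1 and 5 and 17053 and 17782 FPKM in Rab7-labelled 1 and 4. In the other libraries the photoreceptor sums were 39422 to 44111 FPKM in controls, 6050 to 8198 FPKM in Rab5 RNAi and 35491 and 39169 FPKM in Rab7-labelled libraries. The 12 muscle markers summed to 2554 to 3974 FPKM in controls, 2198 to 4155 FPKM in Rab5 RNAi and 2161 to 4193 FPKM in Rab7-labelled libraries. None of the 12 was at 0, and limma called none of them between any groups, with 0 at an unadjusted p under 0.05 and 0 by limma-voom. The labels name no batch that separates these libraries. Each comparison was repeated in the libraries with low Act57B, where the photoreceptor sums of controls and Rab5 RNAi still lay far apart. The part of muscle and photoreceptor RNA in the results below was not tested.

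**Figure D2:**
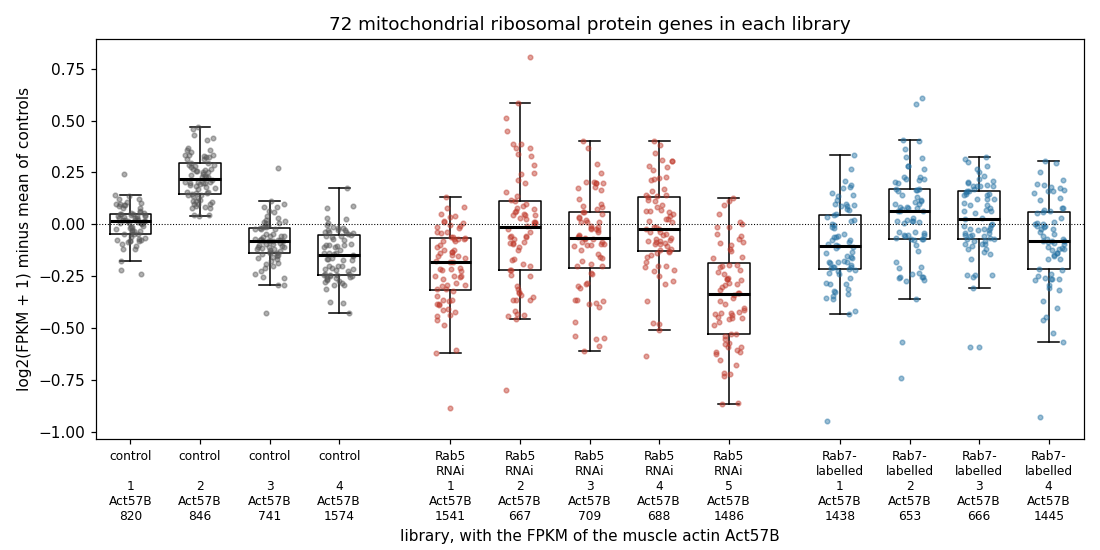
Deviation of 72 mitochondrial ribosomal protein genes from their control mean in each of 13 libraries. Each point is a gene, as log2(FPKM + 1) minus the mean of the 4 controls; boxes give the quartiles, thick lines the medians and whiskers the values within 1.5 box heights; the number under each library is its Act57B FPKM. The whole set sits higher in control 2 (median 0.22) and lower in Rab5 RNAi 5 (median -0.34) than in the other libraries of their groups.

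In Rab5 RNAi heads 8 of the 72 genes were lower than in controls and none was higher, 11.1% of those tested. Over all 10038 genes tested, 17.5% were called, 9.28% lower and 8.26% higher, so the 8 lower calls stand close to the background share of lower calls. The genes were mRpS9, mRpS31, mRpS18C, mRpS34 and mRpS29 of the small subunit (5 of 26) and mRpL41, mRpL44 and mRpL28 of the large subunit (3 of 46). Of 30 genes without a bacterial counterpart 5 were lower, and of 42 with one 3 were lower; the difference between these classes was not tested. The median log2 difference was -0.12, against -0.01 over all genes. With plain read totals it was -0.03, against 0.07 over all genes. Scaling each library to the summed FPKM of these genes makes that sum equal in all libraries, so a median near 0 follows from the scaling. The median was then 0.02, against 0.12 over all genes. Of the 72 genes 53 were below 0, 73.6% against 51.2% of all genes, and for 8 the groups did not overlap, against a background of 18.6%. At an unadjusted p under 0.05, 22 genes were lower and 0 higher, against 30.8% of all genes in either direction. On the recovered reads, limma-voom called 7 lower and 0 higher. Without control 2 the median was -0.03, and without control 1 or without control 2 the calls were 2 genes, mRpS9 and mRpS31. Without Rab5 RNAi 5 the median was -0.07, with 5 calls.

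mRpS9, whose bacterial counterpart touches the tRNA in the P site of the small subunit, had the largest difference. It stood at 38.1, 33.2, 38.6, 41.6 and 38.4 FPKM in Rab5 RNAi 1 to 5, at 60.6, 65.9, 59.6 and 48.9 FPKM in controls and at 53.1, 62.9, 65.5 and 52.6 FPKM in Rab7-labelled libraries. The highest Rab5 RNAi library lay below the lowest of every other group. The log2 difference from controls was -0.61 (SE 0.10, limma adjusted p = 0.00107), lower in 5 of 5 libraries. It was called in all 22 alternative analyses, with adjusted p-values from 4.1e-04 to 0.00783. These alternatives include leaving out each of the 13 libraries in turn. Leaving out a library of the group not compared changes the p-value but not the difference, so the 22 are not independent. As a share of the summed FPKM of all mitochondrial ribosomal protein genes, mRpS9 made up 2.99% ± 0.21 (SD, n = 4) in controls, 2.15% ± 0.29 (SD, n = 5) in Rab5 RNAi and 3.005% ± 0.19 (SD, n = 4) in Rab7-labelled libraries. Of its 1293 exonic bases 325, 25.1%, are shared with exons of ArgRS-m on the opposite strand, the gene of the mitochondrial arginyl-tRNA synthetase. ArgRS-m averaged 6.81 FPKM in controls (SD 0.30, n = 4) and 5.11 FPKM in Rab5 RNAi (SD 0.62, n = 5), a log2 difference of -0.36 (limma adjusted p = 0.0104).

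mRpS31, a small-subunit protein without a bacterial counterpart (FBgn0036557, 3L 16005193 to 16006599, plus strand), was lower in both RNAi groups. Its values were 25.0, 27.3, 25.7 and 25.4 FPKM in controls, 20.1, 20.3, 17.3, 23.7 and 18.6 FPKM in Rab5 RNAi and 19.9, 17.1, 16.8 and 17.7 FPKM in Rab7-labelled libraries. All 9 RNAi libraries lay below all 4 controls, which agreed closely with each other. Against controls the log2 difference was -0.36 (SE 0.08, limma adjusted p = 0.0096) in Rab5 RNAi and -0.51 (SE 0.09, limma adjusted p = 0.00613) in Rab7-labelled libraries. These comparisons share the controls; the RNAi groups themselves were 0.15 apart on the log2 scale (95% interval -0.03 to 0.33, limma adjusted p = 0.284). When each library was scaled to the summed FPKM of the mitochondrial ribosomal protein genes, the Rab5 RNAi call was lost (limma adjusted p = 0.177). That scaling takes out any shift these genes share. Of its exonic bases 48 overlap mib1, a ubiquitin ligase gene on the opposite strand that was higher in Rab5 RNAi (log2 difference 0.39, limma adjusted p = 0.0046).

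mRpL41, a large-subunit protein without a bacterial counterpart (FBgn0034001, 2R 15217024 to 15217617, minus strand), had 20.9, 20.1, 18.6, 22.6 and 17.5 FPKM in Rab5 RNAi, against 29.3, 34.6, 25.0 and 22.7 FPKM in controls and 24.6, 29.9, 29.5 and 24.7 FPKM in Rab7-labelled libraries. The Rab5 RNAi libraries lay below those of both other groups, with control 4 just above the highest of them. The log2 difference from controls was -0.45 (SE 0.12, limma adjusted p = 0.0170), which did not pass without control 1 (0.0559) or without control 2 (0.0573). mRpS18C, the counterpart of bacterial S18 (FBgn0039765, 3R 30423974 to 30424556, plus strand), had 15.3, 15.03, 16.6, 18.5 and 17.2 FPKM in Rab5 RNAi and 21.6, 21.9, 19.3 and 18.9 FPKM in controls. Its groups did not overlap, by a narrow margin, and the log2 difference was -0.29 (SE 0.07, limma adjusted p = 0.0169), lost in 5 of 22 alternatives, limma-voom among them (adjusted p = 0.0579). Rab7-labelled libraries stood between, at 17.6, 19.6, 17.0 and 18.0 FPKM.

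mRpL44, a large-subunit protein with a ribonuclease fold and no bacterial ribosomal counterpart (FBgn0037330, 3R 5469463 to 5470636, minus strand), had the tightest values. They were 19.2, 19.5, 20.1, 20.7 and 19.2 FPKM in Rab5 RNAi and 24.0, 25.0, 22.5 and 21.8 FPKM in controls. The groups did not overlap, and the log2 difference was -0.23 (SE 0.06, limma adjusted p = 0.0184), lost in 6 of 22 alternatives. mRpS34, a mitochondria-specific small-subunit protein (FBgn0285951, 3L 16348074 to 16348782, plus strand), had 22.6, 23.2, 22.5, 23.9 and 20.6 FPKM in Rab5 RNAi and 30.2, 37.1, 24.3 and 27.1 FPKM in controls. Its lowest control was within 1 FPKM of the highest Rab5 RNAi library. The log2 difference was -0.37 (SE 0.11, limma adjusted p = 0.0301), and 8 of 22 alternatives ended the call.

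The most abundant gene of the set, mRpL28, had 52.6, 55.7, 48.9, 56.4 and 39.7 FPKM in Rab5 RNAi, with no overlap with controls. Its log2 difference was -0.35 (SE 0.11, limma adjusted p = 0.0379), lost in 11 of 22 alternatives. mRpS29, the homologue of DAP3, a GTP-binding protein of the small subunit (FBgn0034727, 2R 22418937 to 22420376, minus strand), had 24.7, 24.1, 29.6, 28.6 and 21.96 FPKM in Rab5 RNAi and 33.8, 37.8, 32.8 and 28.7 FPKM in controls. These groups overlapped, since control 4 lay below Rab5 RNAi 3. The log2 difference was -0.36 (SE 0.11, limma adjusted p = 0.0410), lost in 10 of 22 alternatives. Just outside the threshold were mRpS28 (adjusted p = 0.0504), mRpL4 (0.0511) and mRpS30 (0.0520), all with values below 0.

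The largest positive difference was that of mRpL30, the counterpart of bacterial L30 (FBgn0029718, X 4647871 to 4648646, plus strand). It had 28.4, 45.9, 29.8, 32.2 and 26.0 FPKM in Rab5 RNAi and 27.7, 29.3, 22.8 and 23.9 FPKM in controls. Rab5 RNAi 2 was far above the others and the groups overlapped. The log2 difference of 0.29 (SE 0.14) was not called (limma adjusted p = 0.165).

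All 8 lower genes share some exonic bases with another gene, and each of these neighbours lies on the opposite strand. Of the 72 tested genes 42 share exonic bases with another gene, with 8 called and 15 at an unadjusted p under 0.05. The other 30 do not, with 0 called by limma or limma-voom and 7 at an unadjusted p under 0.05. Medians were -0.16 and -0.06. In Rab7-labelled libraries against controls 2 of the 42 and 0 of the 30 were called. Between the RNAi groups 5 of the 42 were called and 2 of the 30, mRpL46 and mRpL49. The strand setting of the authors' counting is not given in the sources used here, so reads of a gene and of its antisense neighbour may not have been told apart, and this split was made after the calls were seen. For mRpL41, mRpL44, mRpS34, mRpS29 and mRpS18C the overlapping neighbour (CG11808, POLDIP2, Golgin104, qkr58E-2 and CG15536) was not called. For mRpL28 the neighbour Gmd shares 17 bases and was higher, with a log2 difference of 0.23 (limma adjusted p = 0.0285).

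In the libraries with low Act57B, 25.5% of all 10038 genes tested were called, 1294 lower and 1269 higher. Of the mitochondrial ribosomal protein genes 8 were lower and 1 was higher, and 5 of them were among the 8 called in all libraries. The lower genes were mRpS9, mRpS31, mRpS18C, mRpS29, mRpL41, mRpS28, mRpS30 and mRpL34, and the higher gene was mRpL23. The median log2 difference there was -0.07, against -0.00060 over all genes.

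**Figure D3:**
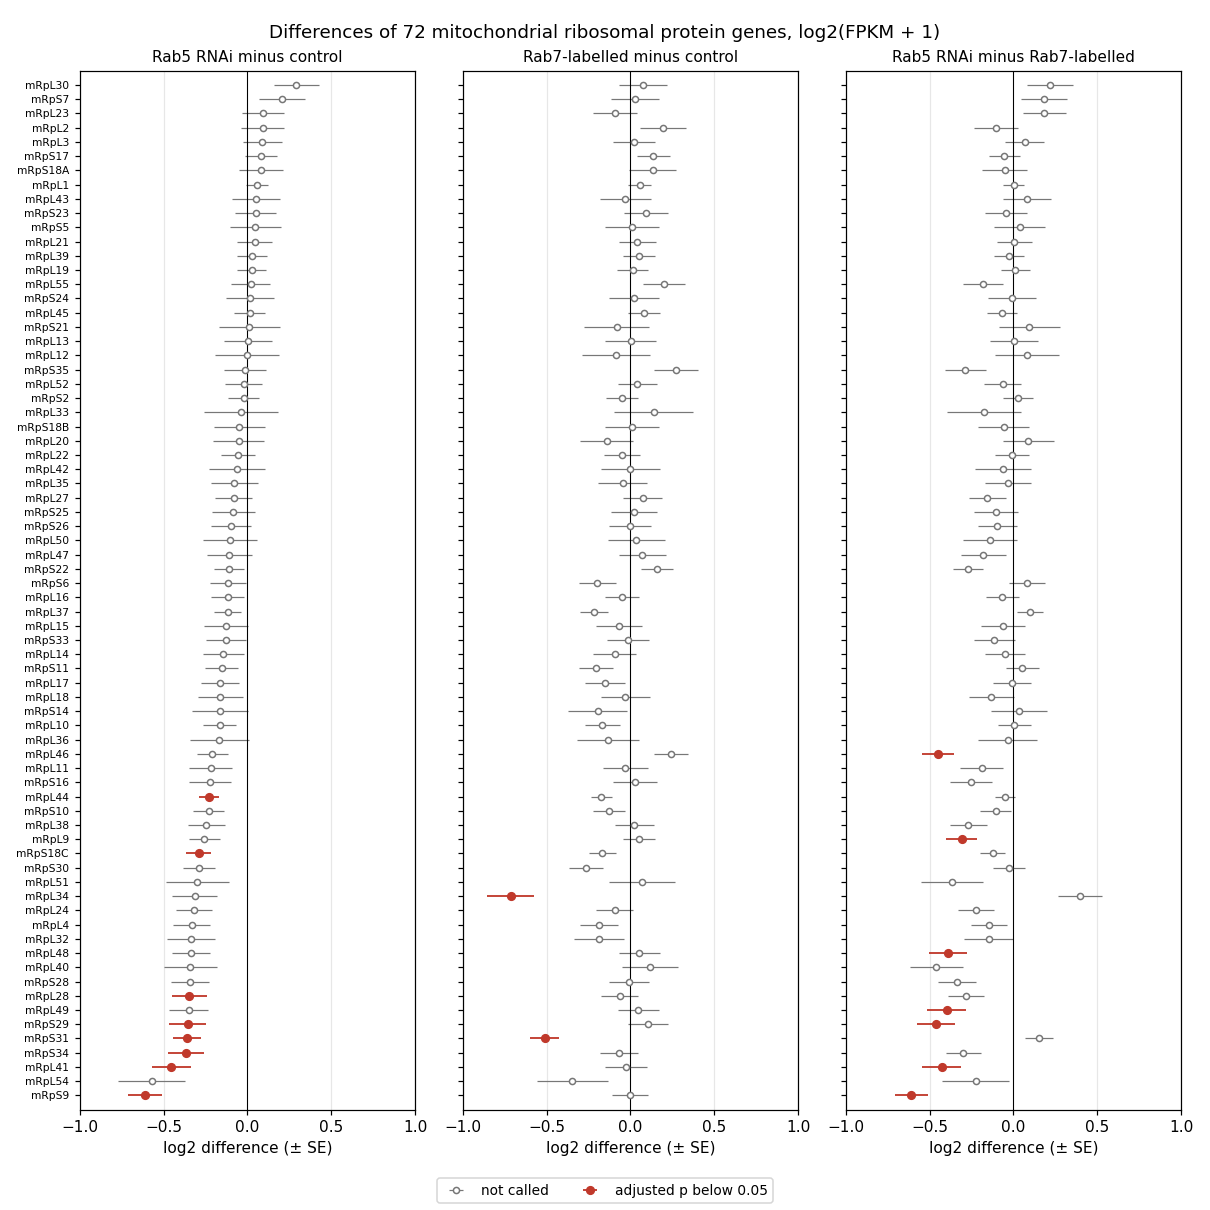
Log2 difference of each of 72 mitochondrial ribosomal protein genes in 3 comparisons, ordered by Rab5 RNAi minus control. Points are differences of log2(FPKM + 1) and bars their SE from limma; filled red points have an adjusted p below 0.05. Of the 72 genes 8, 2 and 7 are filled, all of them below 0, with mRpS9 lowest in the left and right panels and mRpL34 lowest in the middle.

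Rab7-labelled heads had 2 genes lower than controls and none higher, 2.78% of those tested, against a background of 3.21% (1.56% lower and 1.64% higher). The median log2 difference of the 72 genes was -0.0025, against -0.0088 over all genes, and 38 of 72 were below 0. At an unadjusted p under 0.05 there were 5 lower and 1 higher, against 17.3% of all genes in either direction. By limma-voom 1 was lower and 0 higher. The groups did not overlap for 5 of 72 genes, against a background of 13.8%. Without control 2 the median was 0.08. Besides mRpS31, described above, the lower gene was mRpL34, the counterpart of bacterial L34, among the smallest ribosomal proteins (FBgn0083983, 2R 16098948 to 16099337, plus strand).

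mRpL34 had 6.05, 7.14, 8.03 and 8.18 FPKM in Rab7-labelled libraries, 12.997, 13.8, 15.4 and 9.14 FPKM in controls and 11.5, 10.7, 9.59, 8.75 and 9.43 FPKM in Rab5 RNAi. Rab7-labelled libraries lay below all others, although control 4 was near the Rab5 RNAi values. The log2 difference from controls was -0.71 (SE 0.14, limma adjusted p = 0.0130) in Rab7-labelled libraries and -0.32 (SE 0.13, limma adjusted p = 0.123) in Rab5 RNAi. With 327 exonic bases it is a short gene, and 38 to 54 reads stood behind its Rab7-labelled values and 52 to 91 behind its controls. The call ended with limma-voom (adjusted p = 0.0511) and without control 3 (0.0501). It shares 32 bases with CG8414 on the opposite strand.

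The largest positive difference in Rab7-labelled libraries was that of mRpS35, a small-subunit protein without a bacterial counterpart (FBgn0035374, 3L 2780899 to 2782105, plus strand). It had 32.6, 36.1, 35.6 and 35.5 FPKM there, and 30.8, 34.0, 26.4 and 24.7 FPKM in controls. The groups overlapped, and the log2 difference of 0.27 (SE 0.13) was not called (limma adjusted p = 0.308). In the low-Act57B libraries the same 2 genes, mRpS31 and mRpL34, were lower and none was higher, against 4.33% of all genes called in either direction.

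Compared directly, Rab5 RNAi and Rab7-labelled heads differed in 7 of the 72 genes, all lower in Rab5 RNAi, 9.72% of those tested. The background was 11.1%, with 6.4% lower and 4.67% higher. The genes were mRpS9 and mRpS29 of the small subunit and mRpL46, mRpL41, mRpL49, mRpL48 and mRpL9 of the large subunit. The median log2 difference was -0.06 against 0.01 over all genes, and it changed sign with plain read totals, to 0.05 against 0.11 over all genes. With scaling to the genes' own sum, which makes that sum equal in all libraries, it was 0.06 against 0.12 over all genes. At the deposited scaling 51 of 72 were below 0, 70.8% against 48.8%. Unadjusted p-values under 0.05 were found for 14 lower genes and 1 higher gene, against 25.6% of all genes in either direction. By limma-voom 6 were lower and 0 higher. The calls were 2, mRpS9 and mRpL46, without Rab7-labelled 2 or without Rab7-labelled 3, and 3 without Rab5 RNAi 5. They were 4 without Rab5 RNAi 1, Rab7-labelled 4 or control 1.

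Between these groups mRpS9 again had the largest difference, -0.61 (SE 0.10, limma adjusted p = 0.00174), and it was called in all 22 alternatives. mRpL46, a large-subunit protein without a bacterial counterpart (FBgn0035272, 3L 1777439 to 1778347, plus strand), had 24.2, 19.7, 19.2, 24.9 and 22.9 FPKM in Rab5 RNAi, 29.9, 29.0, 32.4 and 30.8 FPKM in Rab7-labelled libraries and 28.3, 28.3, 24.4 and 22.2 FPKM in controls. Controls lay between the RNAi groups and overlapped with Rab5 RNAi. Its log2 difference between the RNAi groups was -0.45 (SE 0.09, limma adjusted p = 0.00808), lost in 1 of 22 alternatives, and neither RNAi group passed against controls. mRpS29, at 31.4, 40.5, 39.7 and 32.2 FPKM in Rab7-labelled libraries, differed by -0.46 (SE 0.11, limma adjusted p = 0.0174), lost in 2 alternatives, and mRpL41 by -0.43 (SE 0.12, limma adjusted p = 0.0331), lost in 8.

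The other 3 genes were close to the threshold. mRpL49, without a bacterial counterpart (FBgn0030433, X 12907105 to 12907942, plus strand), had 24.4, 29.5, 26.3, 32.9 and 22.5 FPKM in Rab5 RNAi and 33.4, 37.1, 40.3 and 32.5 FPKM in Rab7-labelled libraries, which overlapped, with a log2 difference of -0.40 (SE 0.12, limma adjusted p = 0.0442). mRpL48, also mitochondria-specific (FBgn0031357, 2L 1710462 to 1711465, plus strand), had 24.4, 24.5, 30.0, 28.9 and 19.0 FPKM against 31.5, 32.6, 36.5 and 32.2 FPKM, with no overlap and a log2 difference of -0.39 (SE 0.11, limma adjusted p = 0.0448). mRpL9, the counterpart of bacterial L9 (FBgn0038319, 3R 15330738 to 15331588, plus strand), had 29.8, 34.2, 30.2, 32.3 and 28.9 FPKM against 37.3, 41.9, 39.0 and 36.6 FPKM, also without overlap, with a log2 difference of -0.31 (SE 0.09, limma adjusted p = 0.0481). Each of these 3 calls was lost in at least 15 of 22 alternatives. mRpL34 had the largest positive difference, 0.40 (SE 0.13, limma adjusted p = 0.0722), with no overlap between the groups. In the low-Act57B libraries 5 genes were lower and mRpL23 was higher, and 4 of them were among the 7. Of all genes 15.7% were called there in either direction.

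**Figure D4:**
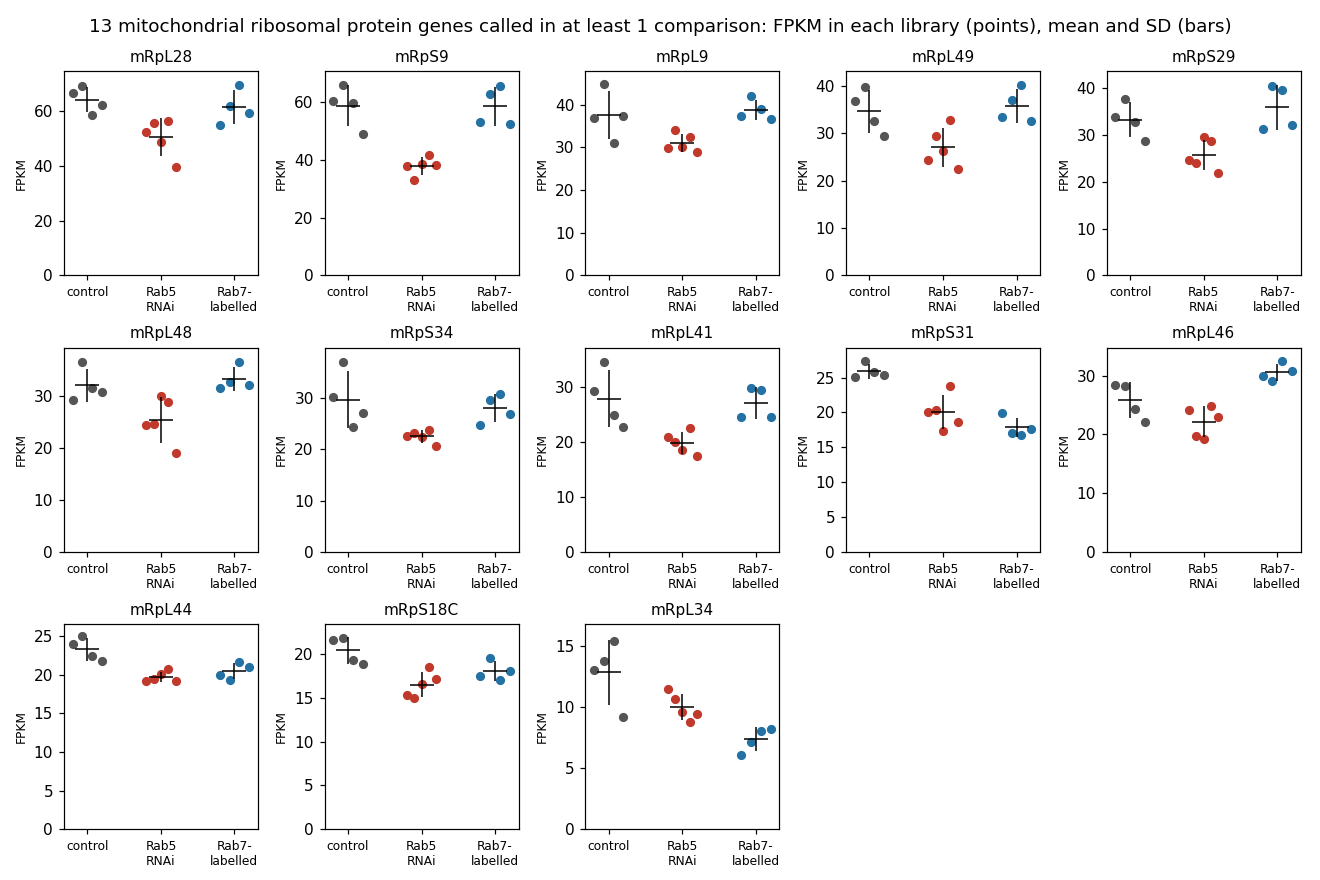
FPKM in each library of the 13 mitochondrial ribosomal protein genes called in at least 1 of the 3 comparisons. Points are libraries in replicate order, horizontal marks are group means and vertical bars SD; axes start at 0. mRpS9 is lower in the 5 Rab5 RNAi libraries than in all others, mRpS31 is lower in all 9 RNAi libraries than in the 4 controls, and mRpL34 is lowest in the 4 Rab7-labelled libraries.

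Of 35 tested nuclear genes from the rest of the mitochondrial gene expression machinery, limma called 6 lower in Rab5 RNAi and 0 higher, 17.1% lower against the background of 9.28% lower; the difference was not tested. limma-voom called 7 lower and 0 higher. At an unadjusted p under 0.05, 12 were lower and 0 higher, against 30.8% of all genes in either direction. A pair of small-subunit proteins carry other names: tko, the S12 homologue at the decoding site, and bonsai, the S15 homologue. tko averaged 13.3 FPKM in Rab5 RNAi (SD 1.40, n = 5) against 17.3 FPKM in controls (SD 2.70, n = 4), a log2 difference of -0.34 (SE 0.10, limma adjusted p = 0.0376). bonsai averaged 25.9 FPKM (SD 2.13) and 25.4 FPKM (SD 1.49) in these groups and was not called. Of 9 tested translation factors 1 fell in Rab5 RNAi, mIF2, the initiation factor that brings the initiator tRNA, from 6.62 FPKM in controls (SD 0.62, n = 4) to 5.02 FPKM (SD 0.36, n = 5), with a log2 difference of -0.34 (SE 0.09, limma adjusted p = 0.0161). The call of tko was lost in 9 of 22 alternatives, and that of mIF2 in 5.

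Among 16 tested mitochondrial tRNA synthetase genes, which load amino acids onto mitochondrial tRNAs, 3 fell in Rab5 RNAi, 18.75% against the 9.28% of all genes, and none rose. Besides ArgRS-m these were PheRS-m (-0.31, SE 0.07, limma adjusted p = 0.0101) and TyrRS-m (-0.41, SE 0.10, limma adjusted p = 0.0148). Of 8 tested genes of mitochondrial transcription and RNA stability 1 fell, mTTF, a transcription termination factor (-0.31, SE 0.09, limma adjusted p = 0.0331), a call lost in 11 of 22 alternatives. TFAM, which packages mitochondrial DNA, and mtRNApol, the mitochondrial RNA polymerase, were not called. In Rab7-labelled libraries against controls limma and limma-voom called 0 of these 35 nuclear genes. At an unadjusted p under 0.05 there were 4, against 17.3% of all genes. Between the RNAi groups both again called 0, with 5 at an unadjusted p under 0.05, against 25.6% of all genes.

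Of the RNAs of the mitochondrial ribosome, 1 was higher in Rab5 RNAi. The large ribosomal RNA mt:lrRNA averaged 31501 FPKM in Rab5 RNAi (SD 11020, n = 5), 29094 FPKM in Rab7-labelled libraries (SD 10851, n = 4) and 16945 FPKM in controls (SD 3537, n = 4). The log2 differences from controls were 0.86 (SE 0.27, limma adjusted p = 0.0416) and 0.74 (SE 0.28, limma adjusted p = 0.189). Rab5 RNAi 2, at 49546 FPKM, was the highest library, and without it the Rab5 RNAi call was lost (limma adjusted p = 0.0799), as it was in 10 of 22 alternatives in all. The small ribosomal RNA mt:srRNA averaged 49.7 FPKM in controls (SD 11.7, n = 4), 78.7 FPKM in Rab5 RNAi (SD 59.9, n = 5) and 105.2 FPKM in Rab7-labelled libraries (SD 28.6, n = 4). It was not called in any comparison. Rab5 RNAi 2 was at 4.66 FPKM and the other Rab5 RNAi libraries at 43.5 to 151.3 FPKM, with a log2 difference from controls of 0.03 (SE 0.74). Libraries were made with an mRNA kit, so levels of both RNAs depend on how it treats ribosomal RNA.

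The genes of the cytosolic ribosome and the nuclear genes of oxidative phosphorylation give a frame for these values. Of 86 tested cytosolic ribosomal protein genes 7 were higher and 0 lower in Rab5 RNAi, against backgrounds of 8.26% and 9.28%. Their median log2 difference was 0.15. With plain read totals 21 were higher and the median was 0.24, against 0.07 over all genes, of which 1369 of 10038 were then higher. In Rab7-labelled libraries 3 of the 86 were higher (3.49%) and 0 lower, against backgrounds of 1.64% and 1.56%. Their median there was 0.30, against -0.01 over all genes, and 85 of 86 were above 0. At an unadjusted p under 0.05 there were 52, against 17.3% of all genes. For 35 the groups did not overlap, against a background of 13.8%. Most complexes of oxidative phosphorylation also contain mitochondrially translated subunits. Of 63 nuclear genes of oxidative phosphorylation 8 were lower and 1 higher in Rab5 RNAi, 12.7% lower against 9.28%. Their median of -0.14 moved to -0.05 with plain read totals, with 1 lower and 1 higher, while the median of all genes moved from -0.01 to 0.07. With scaling to the sum of the mitochondrial ribosomal protein genes their median was 0.0038, against 0.12 over all genes. In Rab7-labelled libraries 0 were lower and 1 was higher, with a median of -0.05. The median of the mitochondrial ribosomal protein genes in Rab5 RNAi, -0.12, was near that of the oxidative phosphorylation genes. The difference between these lists was not tested.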

How the data were processed

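The authors deposited FPKM per gene for 13 head samples, and gene lengths and coordinates in a table of the whole series, whose 13 columns of per-sample values were not used. CASAVA is named in the submitters' processing notes, without a version; no aligner, counter, strand setting, genome build or annotation is given in the sources used here. Coordinates are those of the deposited table, and for all 73 genes they, the names and the lengths equal those of the BDGP6 annotation, which was used for exon overlaps. Within each library, FPKM times gene length came in whole steps for 182918 of 182918 values above 0, within 0.05 of a step, which gave the reads behind each value. Libraries had been scaled to each other before deposit.

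The 10038 genes whose mean FPKM reached 1 were tested, each value as log2(FPKM + 1). limma 3.58.1 (trend, robust) was fitted in R 4.3.3 to all 3 groups together, and p-values were adjusted by the Benjamini-Hochberg method over all genes tested, with calls at an adjusted p below 0.05. Log2 differences are on this scale, which understates changes of low genes. limma-voom on the recovered reads called 779 genes higher and 927 lower in Rab5 RNAi against control. Tested on simulated data of 9959 genes for that comparison, with 50 genes per fold, limma recovered 14% of genes changed 1.25-fold, 56% at 1.5-fold, 74% at 2-fold and 92% at 4-fold, with 3.28% false calls. For Rab7-labelled libraries against control, over 9965 genes, it recovered 10%, 42%, 72% and 82%. Genes changed 1.25-fold or 2-fold were all raised, and genes changed 1.5-fold or 4-fold were all lowered. Falls of 1.25-fold or 2-fold were therefore not simulated, and fold cannot be told apart from direction.

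Genes were named where they were called in a comparison, were among the 3 highest or 3 lowest in controls, had the largest difference in a direction, or held a sample far from its group. Of other lists, up to 3 called genes were named, with tko and bonsai. The genes and lists were chosen with earlier results of these data known. The class without a bacterial counterpart follows textbook assignments for animal mitoribosomes. Deviations of same-numbered samples had correlations from -0.16 to 0.30, and in none of the 3 comparisons was every number above 0.1, so the replicate numbers were not taken as pairs. Promoter and protein sequences were not analysed here.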

Additional observations from a re-analysis of the deposited data

Results flagged for a closer look

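In each group, the highest and lowest library of every gene was compared with the others by Dixon's gap ratio. Over 72 genes and 3 groups, 216 sets of values were tested and 18 were flagged, in 16 genes (8.33%), where chance flags about 1 in 20. Control 2 held 6 of the 18 flags: mRpL1 at 33.4 FPKM (the other controls 29.8 to 30.4), mRpL3 at 30.8 (22.2 to 23.2), mRpL35 at 22.4 (17.7 to 18.2), mRpS16 at 32.8 (24.8 to 25.4), mRpS24 at 13.4 (9.10 to 9.79) and mRpS25 at 48.4 FPKM (34.2 to 35.9). Each was higher there, and control 2 is also the library with the highest summed FPKM of these genes. The other controls gave low values for mRpL14 in control 3, at 25.9 FPKM (34.1 to 34.4), and for mRpS23 in control 4, at 13.4 FPKM (18.9 to 19.9).

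In Rab5 RNAi, replicate 2 was low for mRpL1, at 30.0 FPKM (32.2 to 32.9), and high for mRpL54, at 19.5 FPKM (10.05 to 12.4), and mRpS18A, at 28.6 FPKM (18.7 to 20.7). Replicate 4 was high for mRpL21, at 13.1 FPKM (9.68 to 10.7).

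In Rab7-labelled libraries, replicate 1 was low for mRpL27, at 28.7 FPKM (38.6 to 40.7), and mRpS35, at 32.6 FPKM (35.5 to 36.1). Replicate 2 was high for mRpL18, at 20.5 FPKM (14.1 to 15.1), mRpS23, at 23.1 FPKM (17.5 to 18.3), and mRpS6, at 24.8 FPKM (18.9 to 19.8), and replicate 3 for mRpL4, at 36.6 FPKM (29.1 to 30.2). None of these 16 genes was called in any of the 3 comparisons.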

How the results depend on the processing

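The 8 calls in Rab5 RNAi against control became 3 with plain read totals and 5 with a replicate block (4 of them among the 8). They became 4 when libraries were scaled to the genes' own summed FPKM, a scaling chosen after seeing the data. Of these 4, mRpL41 and mRpS9 were lower and among the 8, and mRpL30 and mRpS7 were higher and not among them. Leaving out each library gave 2 to 12 calls. Of the 2 calls in Rab7-labelled libraries against control, limma-voom kept 1, and leaving out each library gave 1 to 2. The 7 calls between the RNAi groups were 3 with no filter on low values, 4 with plain read totals and 4 with scaling to the genes' sum (each with mRpL34 higher), 4 with the replicate block and 2 to 8 with each library left out. The cause of these changes was not tested. No called difference of a named gene changed sign under any of the 22 alternatives; differences near 0 that were not called were not followed. Plain read totals moved the median of all genes by 0.08 in Rab5 RNAi against control and by 0.10 between the RNAi groups, and the share of higher calls from 47.1% to 67.5% and from 42.2% to 74.0%; relative to all genes the median of the 72 genes was then -0.10 and -0.06. Scaling to the genes' sum, which makes that sum equal in every library by construction, moved the all-gene median by 0.13 and 0.12. The replicate block is not a pairing, since not every number's samples deviated together, and it also takes Rab5 RNAi 5, the only sample of its number, out of the comparisons; leaving that library out without a block gave 5 and 3 calls. The promoter motif search was not run, since no promoter sequences were used here. The smallest changes simulated, all of them rises, were mostly not recovered. The simulation changed 50 genes per fold, drawn from all tested genes, whereas 17.5% of genes were called in Rab5 RNAi against control. The adjustment of p-values depends on that share, so the simulated recovery does not give the share of small changes detectable among the 72 genes.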
